A study of Mus musculus with 16 samples.

Results

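Transcripts of 7 Sox genes, Sox2, Sox4, Sox11, Sox9, Sox6, Sox8 and Sox10, were followed in mouse brain tumours and in ventral and dorsal control brain. The members were chosen by name, as every probe of each of these genes in the platform annotation, which gave 18 of the 45281 probes on the array. A probe was kept where its detection p-value was under 0.05 on at least 3 of 16 arrays, which held for 12 of the 18 Sox probes and for 23131 probes in all. The probes of a gene are numbered from the highest mean signal downwards, and Sox10 has a single probe.

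The tumours, 8 in number and labelled independent tumour tissues, came from mice with creERTM, an inducible Cre recombinase, and were taken when neurological signs appeared. The study's title describes a knockout of tumour suppressors and calls the tumours high grade glioma. They were set against 3 samples of ventral brain (spelled Ventrol in the labels) and 5 of dorsal brain, taken from control mice at matching places. The design text speaks of 10 tumours, and 8 are analysed here. Which genes were deleted, the genotype of the control mice, the ages, the place of each tumour and whether both control regions of a mouse were used are not given in the sources used here.

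Sox proteins bind DNA through an HMG box and are grouped by its sequence. Sox2, of group B1, keeps neural stem cells in a progenitor state, and Sox4 and Sox11, of group C, act in neuronal progenitors and newborn neurons. Sox9, of group E, and Sox6, of group D, act in the change to gliogenesis. Sox9 stays on in astrocytes of the adult brain, and Sox6 holds back the maturation of oligodendrocyte progenitors. Sox8 and Sox10, also of group E, mark the oligodendrocyte lineage, where Sox10 is needed for the activation of myelin genes.

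Signals are log2 values after background correction and quantile normalization, and differences are between such values. Each array detected between 17565 and 20430 probes. The arrays lay on 3 chips, with 3 tumours (F, G and H), 1 ventral and 1 dorsal control on chip 1, 2 tumours (A and B) and 3 dorsal controls on chip 2, and 3 tumours (C, D and E), 2 ventral and 1 dorsal control on chip 3. The list scores of dividing cell markers were 2.54 to 4.49 in tumours, -0.07 to -0.03 in ventral controls and -0.08 to 0.37 in dorsal controls, where a score is the mean of the genes' differences from the mean of both regions. All 3 of these markers passed the filter through the tumours, since at most 1 of 8 controls detected any of them. Nf1, a brake on RAS and a tumour suppressor often deleted in mouse glioma models, passed the filter. Its signal was 4.96 ± 0.26 in tumours (SD, n = 8), 5.82 ± 0.17 in ventral controls (SD, n = 3) and 5.35 ± 0.30 in dorsal controls (SD, n = 5), and Trp53 had no kept probe. The p-values of group differences set them against the spread between these samples within groups, with the samples taken as independent. In bulk tissue, a change in the number of cells of a type and a change in the RNA per cell cannot be told apart.

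**Figure D1:**
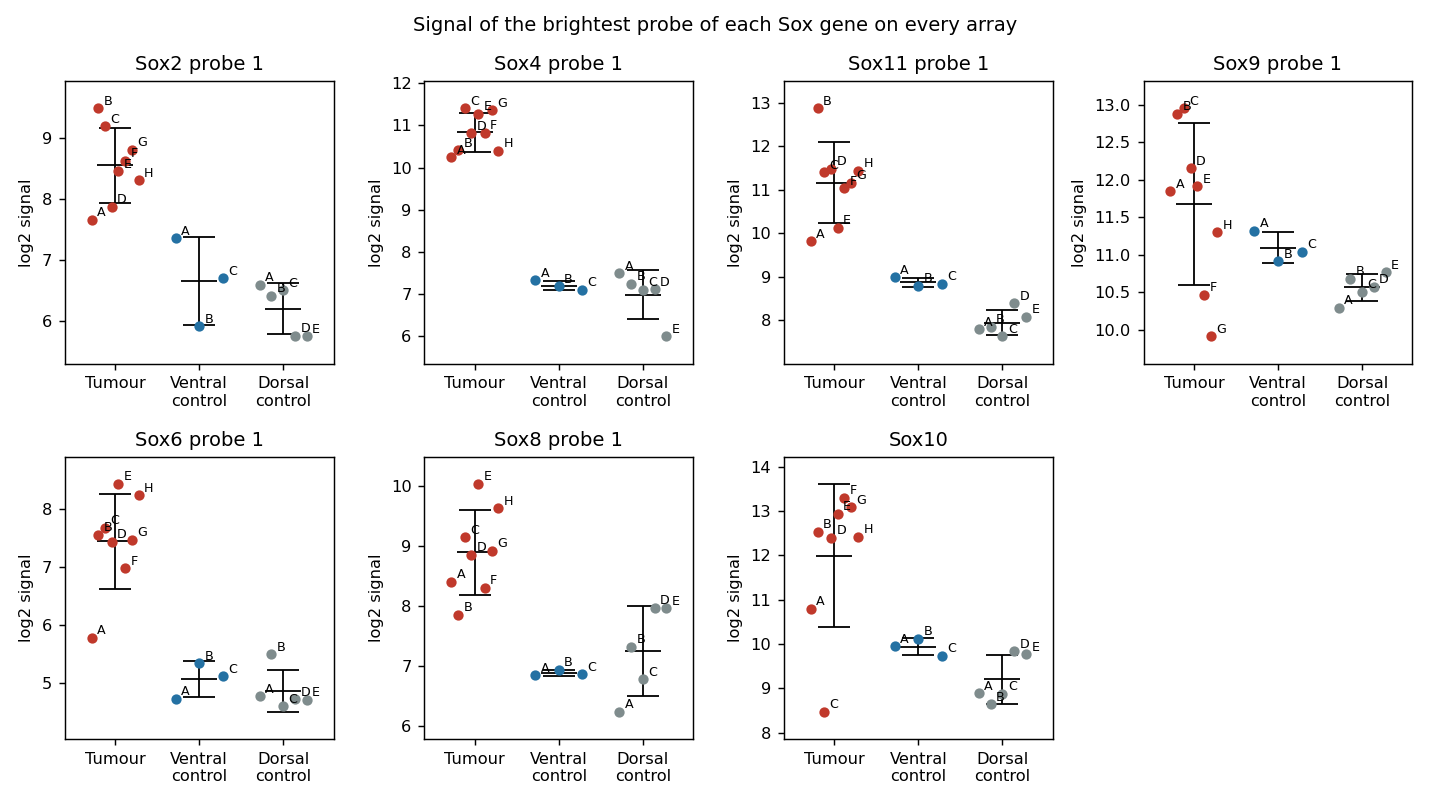
Log2 signal of the probe of highest mean for each Sox gene on every array, with 1 point per array named by its letter, and the bar at the group mean with its SD. For Sox2, Sox4, Sox11 and Sox6 all 8 tumours lie above every control, whereas Sox10 has tumour C at 8.47, below every control, and Sox9 has tumours F and G at 10.46 and 9.91, among or below the controls.

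The tumours held more Sox transcript than either control region for most of the kept probes, and no kept Sox probe was lower. Against the mean of both regions, 9 of the 12 kept Sox probes were higher and 0 were lower by limma at an adjusted p under 0.05, beside 25.8% higher and 25% lower over all kept probes. Against ventral control 9 were higher and 0 lower, beside 17.9% and 18.9% over all kept probes. Against dorsal control 10 were higher and 0 lower, beside 24% and 22.8%. These 3 contrasts share the tumour arrays. Of the 12 kept Sox probes, 2 were detected on too few controls to pass the filter without the tumours, Sox2 probe 2, which was not called, and Sox4 probe 2, which is among the 9 called against both regions and the 9 against ventral control. A probe kept this way was selected through its signal in the tumours, which favours a rise, so the counts that include it are a description. The median difference from both regions was 1.81 over the 12 Sox probes and 0.01 over all kept probes. With median scaling in place of quantiles, 11 Sox probes were higher against both regions, 62.25% of all called probes were higher instead of 50.78%, and the median over all kept probes was 0.14. Against dorsal control the same scaling gave 11 higher Sox probes and 65.26% higher among all called probes, instead of 51.31%. Without background correction the difference from both regions was over 1.5 times smaller for these called probes: Sox6 probe 1 (0.99), Sox2 probe 1 (1.24), Sox8 probes 1 and 2 (1.21 and 0.58), Sox11 probe 2 (1.07) and Sox4 probe 2 (0.14), all of which still passed. It then also lost the calls of Sox4 probe 2 (0.17, limma adjusted p = 0.0509) and Sox11 probe 2 (0.90, adjusted p = 0.0768) against ventral control and of Sox9 probe 2 against dorsal control (0.57, adjusted p = 0.0521).

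**Figure D2:**
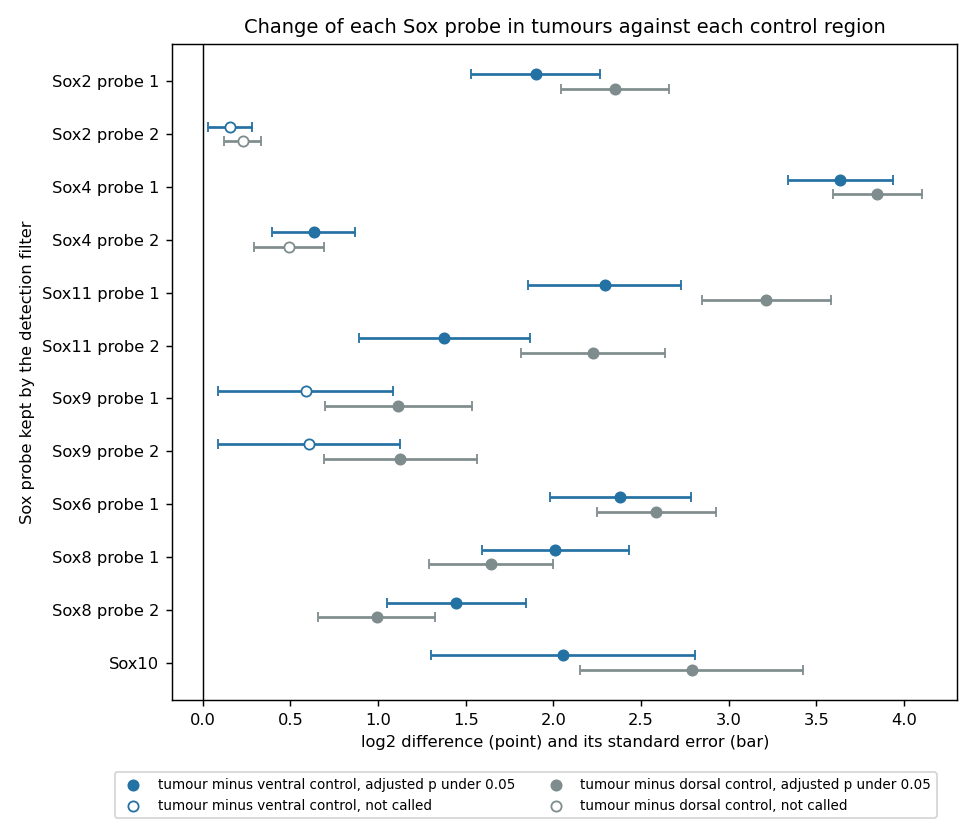
Log2 difference of each kept Sox probe in tumours against ventral control (blue) and dorsal control (grey), with its standard error as the bar. Filled points passed at an adjusted p under 0.05. Sox4 probe 1 lies farthest from 0, at 3.64 against ventral and 3.85 against dorsal control, and the second probes of Sox2 and Sox4 lie near 0.

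The progenitor genes Sox4, Sox11 and Sox2 rose in every tumour by their first probes. All 8 tumours lay above all 8 controls for Sox2 probe 1, Sox4 probe 1, Sox11 probes 1 and 2 and Sox6 probe 1, an arrangement found for 9.74% of all kept probes. The promoters of the progenitor genes that rose this way are shown, from RefSeq (GRCm38.p6), with 250 bases before and 50 after the start of the gene. Capitals mark CCAAT, which reads ATTGG on the other strand, the motif named CCAAT box and bound by NF-Y. They span chr3:34649745-34650044 on the plus strand, chr13:28953650-28953949 on the minus strand and chr12:27342669-27342968 on the minus strand.
Sox2 promoter: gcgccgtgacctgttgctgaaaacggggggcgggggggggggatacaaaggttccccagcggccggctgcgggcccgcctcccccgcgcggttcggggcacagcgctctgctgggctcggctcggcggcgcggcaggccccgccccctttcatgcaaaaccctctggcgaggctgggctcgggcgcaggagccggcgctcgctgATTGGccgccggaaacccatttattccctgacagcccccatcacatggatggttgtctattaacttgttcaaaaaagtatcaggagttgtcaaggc
Sox4 promoter: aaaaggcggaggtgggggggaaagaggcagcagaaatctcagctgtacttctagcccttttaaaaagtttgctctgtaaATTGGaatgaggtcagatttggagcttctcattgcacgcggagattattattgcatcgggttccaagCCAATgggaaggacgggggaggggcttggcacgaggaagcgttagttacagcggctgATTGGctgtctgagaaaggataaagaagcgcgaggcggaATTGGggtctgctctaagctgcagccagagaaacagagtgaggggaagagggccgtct
Sox11 promoter: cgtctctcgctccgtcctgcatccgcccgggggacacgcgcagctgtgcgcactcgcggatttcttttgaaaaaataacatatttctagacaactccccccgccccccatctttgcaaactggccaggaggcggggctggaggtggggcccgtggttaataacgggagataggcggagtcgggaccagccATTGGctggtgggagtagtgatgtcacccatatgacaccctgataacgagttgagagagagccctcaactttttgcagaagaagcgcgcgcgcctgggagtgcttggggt

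The motif stood once in the Sox2 promoter, beginning 46 bases before the start, and once in that of Sox11, 60 bases before it. The Sox4 promoter held 4 matches, beginning 171, 104, 47 and 8 bases before the start. Among 32851 promoters of the same length, 37.4% held at least 1 match and 11.7% at least 2, counting both strands. The E-box CAGCTG, a sequence of the kind that bHLH factors bind and which is the same on both strands, stood once in Sox4 and once in Sox11, and in 16.3% of all promoters. Of the Sox-type motifs, ACAAAG stood once in the Sox2 promoter and in 18.7% of all promoters. ACAATG stood in none of the sequences shown and in 12.6% of all. All 4 motifs were searched on both strands, each counted whether or not it shared bases with another. These are matches of letters and show no binding. RefSeq promoters were matched for 5 of the 7 genes (Sox2, Sox4, Sox11, Sox6 and Sox8), not for Sox9 and Sox10. The single Sox8 promoter held 0 matches to each of the 4 motifs. Of 6 Sox6 promoters in the table, 3 held CCAAT, 1 CAGCTG, 5 ACAAAG and 2 ACAATG, and none is shown because the data do not tell which is in use.

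Sox4 showed the largest difference of the kept Sox probes. Probe 1 ran from 10.24 (tumour A) to 11.40 (tumour C) in the tumours, with a median of 10.82. It read 7.33, 7.18 and 7.10 in ventral controls A, B and C, and 7.49, 7.24, 7.10, 7.12 and 6.00 in dorsal controls A to E. The tumours stood well clear of the controls, and their SD of 0.46 exceeded that of 53.9% of the 11755 genes. The difference was 3.74 ± 0.23 against both regions, a 13.4-fold higher signal (limma adjusted p = 3.02e-09). It was 3.64 against ventral control (12.4-fold) and 3.85 against dorsal control (14.4-fold). Within chips 1 and 3, which hold all 3 groups, it was 3.45 and 4.59 against both regions, the second with the low dorsal control E as the only dorsal array. Leaving out that array gave 3.62.

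Sox4 probe 2 gave a much smaller change. It read 4.43 to 5.57 in tumours (median 5.15, detected in 6 of 8), 4.39, 4.57 and 4.36 in ventral controls (detected in 0 of 3) and 4.44, 4.50, 4.50, 4.90 and 4.57 in dorsal controls (detected in 1 of 5, array D). Tumours A, D and H lay among the controls, and 5 of 8 tumours lay above every control. The difference was 0.56 ± 0.18 against both regions (limma adjusted p = 0.014) and 0.49 ± 0.20 against dorsal control, which did not pass (adjusted p = 0.051). Against ventral control the signal was at least 1.16-fold higher, the bound set by the lowest detected signal on each array (measured means 5.08 and 4.44, adjusted p = 0.0443). That call was lost without 12 of the 16 arrays in turn, with an adjusted p up to 0.14.

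Sox11, the other group C gene of the set, rose by both of its kept probes. Probe 1 ran from 9.82 (tumour A) to 12.88 (tumour B) in the tumours, with a median of 11.29. It read 8.99, 8.79 and 8.84 in ventral controls and 7.80, 7.85, 7.64, 8.39 and 8.09 in dorsal controls. No tumour overlapped the controls, and the 3 ventral controls lay above all 5 dorsal ones. The difference from both regions was 2.75 ± 0.33, or 6.75-fold (limma adjusted p = 3.9e-06), with 2.29 against ventral and 3.22 against dorsal control. Probe 2 ran from 7.04 to 10.41 in tumours, against 6.83 to 7.03 in ventral and 5.86 to 6.46 in dorsal controls, so tumour E (7.04) stood just above ventral control A (7.03). Its difference was 1.80 ± 0.37 against both regions (adjusted p = 0.000655) and 1.38 ± 0.49 against ventral control (adjusted p = 0.0356). The contrast with ventral control lost its call without each of the 3 ventral controls and tumours C, D and H in turn, and with chip as a block (1.29, adjusted p = 0.0692). Both probes ordered the tumours alike (r = 0.95 over 8 tumours), with tumour B highest. Probes 3 and 4 were detected on 0 of 16 arrays.

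Sox2, the stem cell factor, rose by its first probe. The signal ran from 7.66 (tumour A) to 9.49 (tumour B) in tumours, with a median of 8.54. It was 7.36, 5.91 and 6.70 in ventral controls and 6.59, 6.42, 6.50, 5.75 and 5.75 in dorsal controls. No tumour overlapped the controls, and ventral control A came closest to the tumours. The difference from both regions was 2.13 ± 0.28, or 4.36-fold (limma adjusted p = 9.28e-06), with 1.90 against ventral and 2.35 against dorsal control. Probe 2 was detected in 3 of 8 tumours and in 0 of 8 controls, and its signal of 4.57 to 4.99 in tumours overlapped 4.49 to 4.78 in ventral and 4.42 to 4.80 in dorsal controls. Its difference from both regions was 0.19 ± 0.10 (adjusted p = 0.107).

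Where both probes of a gene were detected on every array, their changes could be compared. Those of Sox11 differed by 0.96 on the log2 scale, probe 1 changing more (exact two-sided permutation test over 8 tumours and 8 controls, p = 0.000155, the smallest it can give, adjusted over 5 pairs of probes 0.000259). Those of Sox8 differed by 0.62, again with probe 1 changing more (exact p = 0.000932, adjusted 0.00117). The Sox9 probes differed by -0.01 (exact p = 0.881). Without background correction, probes 1 and 2 changed against both regions by 2.37 and 1.07 for Sox11, 1.21 and 0.58 for Sox8, and 0.82 and 0.47 for Sox9. The gap between the probes was thus wider without the background step for Sox11 and Sox9, and about the same for Sox8. The part of signal level in it was not tested. The second probes of Sox2 and Sox4 lay near background in the controls and stayed low in the tumours. They read 4.57 to 4.99 (Sox2, detected in 3 of 8 tumours) and 4.43 to 5.57 (Sox4, detected in 6 of 8). Controls near background do not by themselves prevent a rise, since Sox6 probe 1 rose by 2.48 from such controls. The probes of Sox2 and of Sox4 thus disagreed in the size of the change, and the cause was not tested. The position of the probes in the transcripts was not analysed here.

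The glial genes Sox9 and Sox6 differed in how evenly they moved. Sox6 probe 1 was 5.78 (tumour A) to 8.44 (tumour E) in tumours, with a median of 7.52. It was 4.74, 5.35 and 5.12 in ventral controls and 4.77, 5.50, 4.61, 4.73 and 4.72 in dorsal controls. Detection held in 8 of 8 tumours, 2 of 3 ventral and 1 of 5 dorsal controls, so most controls lay near background, and tumour A came closest to them. The difference was 2.48 ± 0.30 against both regions, or 5.60-fold (limma adjusted p = 4.71e-06), 2.38 against ventral and 2.59 against dorsal control. The fold rests on controls of which 5 of 8 did not detect the probe. The other 4 Sox6 probes failed the filter. With Sox11 probes 3 and 4 they make the 6 Sox probes that failed, which read 4.28 to 5.76 over all arrays, were detected on 1 array (2 probes) or 0 arrays (4 probes), and exceeded 4.84 in no control. Sox6 probes 3, 4 and 5 are annotated to the RefSeq transcript of the gene and were detected on 0, 0 and 1 of 16 arrays. The rise of Sox6 thus rests on probe 1 alone, which is annotated to a different sequence.

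Sox9 split the tumours. Probe 1 read 11.85, 12.88, 12.95, 12.15, 11.91, 10.46, 9.91 and 11.30 in tumours A to H. It read 11.32, 10.91 and 11.04 in ventral controls and 10.29, 10.67, 10.50, 10.57 and 10.77 in dorsal controls. Tumours A to E lay above every control, tumour H lay just under ventral control A, and tumour G lay below every control. Against both regions the difference of 0.85 ± 0.37 did not pass (limma adjusted p = 0.0684), nor did 0.59 ± 0.50 against ventral control (adjusted p = 0.385). Against dorsal control it was 1.12 ± 0.42 and passed (adjusted p = 0.0383), but this call was lost without 10 of the 16 arrays in turn, among them each dorsal control and each of tumours A to E, with an adjusted p up to 0.0817. Probe 2 gave the same picture, with 0.87 ± 0.39 against both regions (adjusted p = 0.0747) and 1.13 ± 0.44 against dorsal control (adjusted p = 0.044, up to 0.0858 and lost without 14 of the 16 arrays). Its tumour values ran from 5.45 (tumour G) to 8.63 (tumour C), with tumours F and G below every control and the other tumours above every control, and both probes correlated at r = 0.98 over the 8 tumours.

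The low Sox9 signals fell on 1 chip. The 3 tumours of chip 1 (F, G and H) averaged 10.56, beside 11.32 in the ventral and 10.29 in the dorsal control of that chip, a difference of -0.25 from both. On chip 3 the tumours averaged 12.34, against 10.98 in ventral and 10.77 in dorsal controls, a difference of 1.47. On chip 2 they averaged 12.37, against 10.58 in the dorsal controls. The ventral control of chip 1 was the highest ventral control for Sox9 and the dorsal one was the lowest dorsal control. With chip as a block, Sox9 probe 1 passed against both regions (0.96, limma adjusted p = 0.0187). It also passed without tumour G alone (1.10, adjusted p = 0.00716) and without tumour F alone. Without the tumours of chip 1 together, a setting added after the values were seen, the difference was 1.52. Tumours F, G and H were the lowest tumours for Sox9, so leaving them out had to raise the difference. These settings therefore add no support for a rise. Whether the chip took part in this was not tested.

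The oligodendrocyte genes Sox8 and Sox10 were both higher in tumours, Sox10 with the larger spread. Sox8 probe 1 ran from 7.86 (tumour B) to 10.04 (tumour E) in tumours, with a median of 8.89. It was 6.85, 6.94 and 6.87 in ventral controls and 6.24, 7.33, 6.78, 7.97 and 7.97 in dorsal controls. Tumour B was the only tumour within the range of the controls, and it was exceeded by dorsal controls D and E. The difference was 1.83 ± 0.32 against both regions, or 3.55-fold (limma adjusted p = 0.000155), 2.01 against ventral and 1.64 against dorsal control. Probe 2 gave 1.22 ± 0.30 (adjusted p = 0.00283), with 6.54 to 8.39 in tumours, 5.79 to 6.12 in ventral controls and 5.70 to 7.35 in dorsal controls. Its call against dorsal control (0.99, adjusted p = 0.0224) was lost with chip as a block (0.78, adjusted p = 0.0616), without dorsal control A (0.82, adjusted p = 0.0732), without dorsal control C (0.84, adjusted p = 0.07) and without the tumours of chip 1 (0.93, adjusted p = 0.062). The dorsal controls D and E, high for Sox8, were also the highest dorsal controls for Sox10 and for the list of myelin genes, with scores of 0.81 and 0.14 against -1.04 to -0.60 in the other dorsal controls, and the part of this in the results was not tested.

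Sox10 read 10.80, 12.53, 8.47, 12.39, 12.94, 13.30, 13.08 and 12.41 in tumours A to H. It read 9.95, 10.12 and 9.74 in ventral controls and 8.89, 8.64, 8.87, 9.84 and 9.77 in dorsal controls. All tumours except C lay above every control, and tumour C lay below each of them. The SD over tumours, 1.62, exceeded that of 98.6% of the 11755 genes, beside 93% for Sox9, 89.5% for Sox11 and 85% for Sox6. The difference was 2.42 ± 0.57 against both regions, or 5.36-fold (limma adjusted p = 0.00205), and 2.79 ± 0.64 against dorsal control (adjusted p = 0.00184). Without tumour C it was 2.93 against both regions. Against ventral control it was 2.06 ± 0.75 with an adjusted p of 0.0424. That call was lost without 13 of the 16 arrays in turn (adjusted p up to 0.129), with chip as a block (2.01, adjusted p = 0.0626) and without the tumours of chip 1 (1.49, adjusted p = 0.156). It held without tumour C (2.56, adjusted p = 0.000237), but leaving out the lowest tumour had to raise the difference, so this adds no support. Within chip 1 the difference from both regions was 3.52 and within chip 3, which holds tumour C, it was 1.42.

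**Figure D3:**
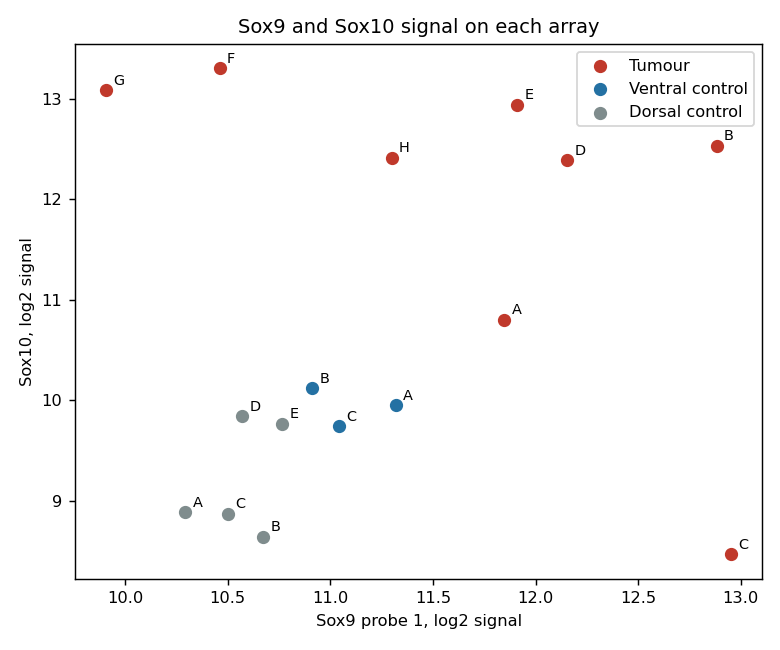
Log2 signal of Sox9 probe 1 (horizontal axis) and Sox10 (vertical axis), 1 point per array named by its letter and coloured by group. Tumour C has the highest Sox9 signal (12.95) with the lowest Sox10 signal (8.47), and tumours F and G have the highest Sox10 signals (13.30 and 13.08) with the lowest Sox9 signals of the tumours (10.46 and 9.91).

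Tumours that were high for Sox10 tended to be low for Sox9, but the relation did not pass. Over the 8 tumours Pearson's r was -0.60 (exact permutation p = 0.109) and Spearman's rho -0.67 (exact permutation p = 0.0831). Without tumours F and G, the farthest from the median of Sox9, r was -0.48, and with each tumour centred on the tumour mean of its chip it was -0.42. Sox6 and Sox8 went the same way, with r of 0.67 (exact p = 0.0615) and rho of 0.74 (exact p = 0.0458), and r of 0.69 without tumours A and E. Sox2 and Sox11 gave r of 0.68 (exact p = 0.0532) and rho of 0.40 (exact p = 0.327), which rested on tumours A and B, since r was -0.04 without them. All 21 pairs of the 7 genes were computed, and 0 passed after Benjamini-Hochberg adjustment, with the lowest adjusted p at 0.645 for Pearson's r and 0.872 for Spearman's rho. Sox8 and Sox10, of the same lineage and group, showed no common order of tumours (r = -0.03, exact p = 0.946).

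Tumour C, low in Sox10, was also low in part of the oligodendrocyte lineage genes. Its score for 9 oligodendrocyte progenitor genes was 0.56, against 1.44 to 3.08 in the other tumours, 0.35 to 0.40 in ventral controls and -0.60 to -0.0049 in dorsal controls. It was the lowest tumour for 4 of these 9 genes and for 6 of 10 myelin genes. The following genes of these lists were picked after their values were seen. Pdgfra, the growth factor receptor of these progenitors, read 8.21 in tumour C, against 10.28 to 12.82 in the other tumours, and Cspg4, which encodes the NG2 proteoglycan, read 6.12, against 7.42 to 10.57. In both cases tumour C fell within the range of the controls. Olig2, a lineage factor, read 7.46 in tumour C, and Olig1 read 12.81, both above every control. Sox8 was 9.15 in tumour C, the third highest of the tumours and above every control.

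**Figure D4:**
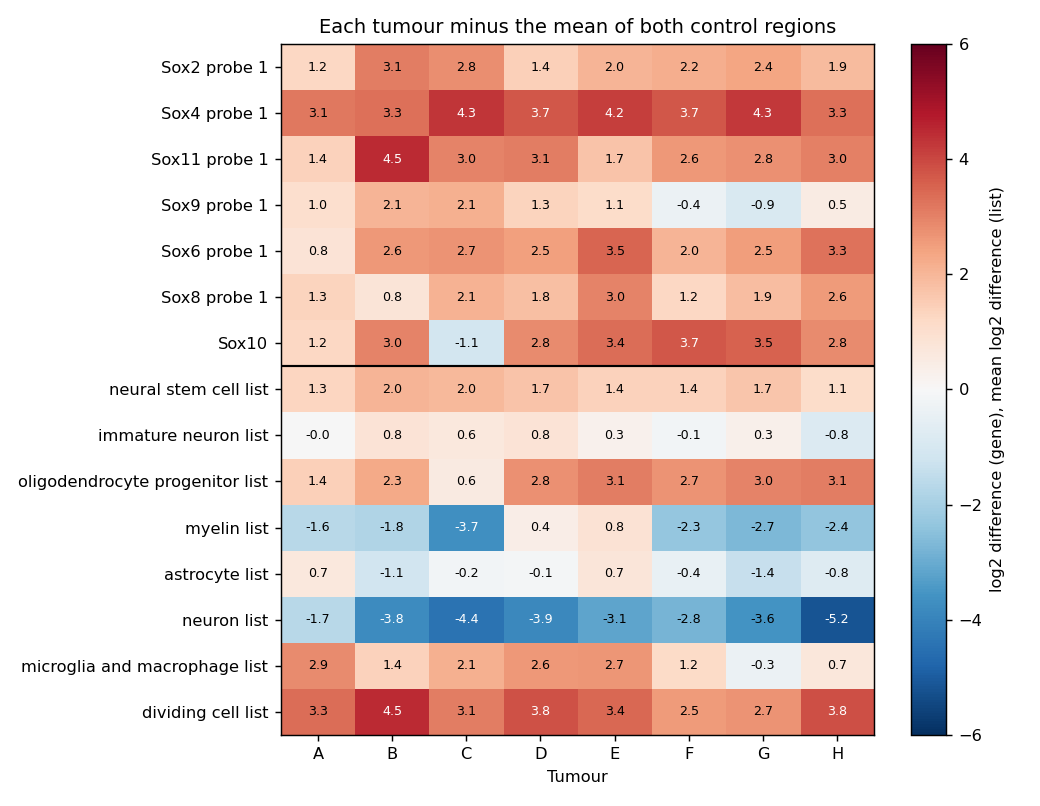
Difference of each tumour (columns A to H) from the mean of both control regions on the log2 scale, for the first probe of each Sox gene (above the line) and as the mean over the genes of each list (below it), with red for higher and blue for lower. Sox10 is blue in tumour C (log2 signal 8.47, below every control) and red in the other tumours, and the column of tumour C has the lowest scores for the oligodendrocyte progenitor list (0.56) and the myelin list (-3.66).

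Genes that work beside the Sox factors are given next, each by its kept probe of highest mean and in tumour minus the mean of both regions, where 27.2% of the 11755 genes were higher and 26.6% lower. The lists share no member with the 7 Sox genes. The oligodendrocyte progenitor list had 8 of 9 measured genes higher and 0 lower (median difference 2.58), with Lhfpl3 at 3.37 ± 0.41 (limma adjusted p = 5.39e-06) and Olig2 at 3.28 ± 0.38 (adjusted p = 2.61e-06). The myelin list, which holds known targets of Sox10, had 0 of 10 higher and 6 lower (median -2.20), among them Mobp (-3.68 ± 0.75, adjusted p = 0.000664) and Mbp (-3.18 ± 0.78, adjusted p = 0.00291), both of which encode myelin proteins. Sox10 was thus higher, and 6 myelin genes lower, in the tumours as a group. The myelin scores ran from -3.66 to 0.85 in tumours, 0.10 to 0.60 in ventral controls and -1.04 to 0.81 in dorsal controls. They were 0.41 and 0.85 in tumours D and E, whose Sox10 signals were 12.39 and 12.94. Tumours F and G, highest in Sox10, scored -2.33 and -2.68, and tumour C, lowest in Sox10, scored -3.66.

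The neural stem cell list, chosen around the partners of Sox2, had 6 of 9 measured genes higher and 0 lower (median 0.86), where Fabp7, among the 6, and Pou3f4 had been kept through the tumours, and with the intermediate filament genes Vim (4.86 ± 0.33, limma adjusted p = 1.14e-08) and Nes (3.52 ± 0.41, adjusted p = 3.24e-06) leading. The immature neuron list, chosen around Sox4 and Sox11, had 3 of 6 higher and 2 lower (median 0.41). Tead2, a transcription factor that Sox4 and Sox11 activate, was 2.27 ± 0.49 higher (adjusted p = 0.00101) and Igfbpl1, kept through the tumours, 1.46 ± 0.35 higher (adjusted p = 0.00235). Elavl3, a neuronal RNA-binding protein gene, was lower (-1.61 ± 0.35, adjusted p = 0.00106), as was Stmn1, which encodes a tubulin-binding protein (-1.60 ± 0.22, adjusted p = 1.36e-05). The high Sox4 and Sox11 signals thus stood beside immature neuron genes that moved in both directions.

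The astrocyte list, chosen around Sox9, had 3 of 10 genes higher and 4 lower (median -0.10). Gfap, the astrocyte intermediate filament, was 1.87 ± 0.61 higher (limma adjusted p = 0.0168), and Nfib, a gliogenic factor, was 1.68 ± 0.17 higher (adjusted p = 8.52e-07). Ntsr2 (-3.04 ± 0.26, adjusted p = 1.1e-07) and the gap junction gene Gja1 (-2.33 ± 0.55, adjusted p = 0.00221) were lower. The astrocyte score was -0.17 in tumour C and -1.14 in tumour B, the tumours with the highest Sox9 signal, and -1.40, -0.44 and -0.77 in tumours G, F and H, those with the lowest. It was 0.71 in tumour E, 0.65 in tumour A and -0.13 in tumour D.

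Markers of other cell types moved as well, and their part in the Sox results was not tested. Of 7 neuron markers 7 were lower (median -3.74), with scores of -5.19 to -1.68 in tumours, -0.34 to -0.09 in ventral controls and -0.69 to 0.63 in dorsal controls, and the largest falls in Slc17a6 (-4.75) and Gad2 (-4.13). Of 7 microglia and macrophage markers 4 were higher and 0 lower (median 1.30), with Lyz2 at 4.83 and C1qa at 2.45, and scores of -0.34 to 2.85 in tumours, -0.31 to 0.02 in ventral controls and -0.05 to 0.46 in dorsal controls. Of 3 dividing cell markers 3 were higher (median 3.35), but all 3 had been kept through the tumours, so this count is a description. Top2a and Cdk1 were each detected in 8 of 8 tumours, 0 of 3 ventral and 1 of 5 dorsal controls. Of 6 endothelial and mural markers 0 were higher and 1, Flt1, was lower (-1.09), with scores of -0.56 to 1.23 in tumours, -0.10 to 0.08 in ventral controls and -0.29 to 0.40 in dorsal controls.

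Some other members of the family were higher too. Of 12 further Sox genes 9 were measured, and 4 of them were higher and 1 lower in tumours than in the mean of both regions (median 0.52). Over all 11755 genes 27.2% were higher and 26.6% lower, and whether the family differs from this share was not tested. Of the 9, Sox3 and Sox13 passed the filter through the tumours, and Sox3 is among the 4. Sox3, a group B1 gene like Sox2, was detected in 8 of 8 tumours and in 0 of 8 controls, with 5.24 to 7.83 in tumours, 4.58 to 4.75 in ventral controls and 4.37 to 4.63 in dorsal controls. Its signal was at least 3.07-fold higher (limma adjusted p = 2.82e-05). Sox12, the remaining group C gene, was 1.92 ± 0.19 higher (3.78-fold, adjusted p = 5.14e-07), and Sox21, a group B2 gene, 1.82 ± 0.26 higher (3.52-fold, adjusted p = 2.24e-05), both with all 8 tumours above every control. The group C genes Sox4, Sox11 and Sox12 thus each had a probe that was higher in every tumour than in every control. Sox7, a gene of vessel cells, was 0.52 ± 0.19 higher (adjusted p = 0.034), with 3 of 8 tumours above every control, A (6.45), D (6.36) and B (6.08). Tumour A had the highest endothelial score (1.23), whereas tumours D and B scored -0.13 and -0.18. Sox14, of group B2, was lower (-0.66 ± 0.14, adjusted p = 0.00118) and was detected in 1 of 8 tumours, 3 of 3 ventral and 1 of 5 dorsal controls. Against dorsal control alone its difference was -0.15 (adjusted p = 0.453).

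Between the control regions 0 of the 12 kept Sox probes passed in ventral minus dorsal control, beside 8.18% of all kept probes, and 0 had an unadjusted p under 0.05 by limma. With array weights in the fit, 2 passed, Sox11 probes 1 and 2 (0.99 and 0.95, adjusted p = 0.00742 and 0.0195). In the fit without weights Sox11 probe 1 was 8.88 ± 0.11 in ventral (SD, n = 3) and 7.95 ± 0.29 in dorsal controls (SD, n = 5), a difference of 0.92 ± 0.47 (limma adjusted p = 0.32). Sox9 probe 1 was 11.09 ± 0.21 in ventral and 10.56 ± 0.18 in dorsal controls (0.53 ± 0.54, adjusted p = 0.726), again with every ventral control above every dorsal one. Sox11 probe 2 gave 0.85 ± 0.53 (adjusted p = 0.446), and the other differences were between -0.45 (Sox8 probe 2) and 0.73 (Sox10). By the first probe of each of the 7 genes the tumour mean was the highest of the groups, and ventral and dorsal control were not told apart by this test. The test takes 1 spread per probe over all 3 groups, tumours included. The tumour SD was 0.93 for Sox11 probe 1 and 1.08 for Sox9 probe 1, larger than in either control region. A difference that did not pass thus does not show that the regions were alike. Median scaling gave 0 Sox probes as well, with 62.93% instead of 50.13% of all called probes higher in ventral control. Outside the 7 genes, Sox14 was higher in ventral than in dorsal control (1.01 ± 0.21, adjusted p = 0.00514).

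The genes whose signal over the 8 tumours was most like that of each Sox gene were taken from 11754 other named genes by Pearson's r, as a description. They were Akap9, Dusp16 and Tysnd1 for Sox2 (r of 0.98, 0.96 and 0.95), Rab22a, Smim41 and Fam193b for Sox4 (0.96, 0.95 and 0.95) and Ncaph, Dnaaf2 and Nedd1 for Sox11 (0.97, 0.96 and 0.95). For Sox9 they were Asl, Acaa2 and Ndufaf7 (0.99, 0.99 and 0.98) and for Sox6 Eif2ak1, Shd and Safb2 (0.97, 0.97 and 0.95). For Sox8 they were Tril, Pepd and 1500011B03Rik (0.95, 0.94 and 0.94) and for Sox10 Ctnnbip1, Wipf1 and Usp16 (0.98, 0.98 and 0.96). The most negative r values were as far from 0, from -0.98 for Ly6g6e with Sox10 to -0.95 for Plaur with Sox8, so a high r over 8 tumours is common among this many genes.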

How the data were processed

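Total RNA from flash-frozen tissue was labelled with biotin and hybridised to Illumina mouse bead arrays, per the labels. The authors deposited a probe intensity on a linear scale, not normalized, with its detection p-value, and a table of log2 values. The deposited log2 values differed by at most 0.0603 from those computed here. The number of arrays limits the precision.

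From the intensities, background was corrected by normexp through the detection p-values (limma 3.58.1 in R 4.3.3, neqc, offset 16), followed by quantile normalization and log2. A probe stayed in where at least 3 of 16 arrays gave it a detection p-value under 0.05. Each probe was fitted with 1 mean per group, and p-values were adjusted by Benjamini-Hochberg over all 23131 kept probes. Gene names came from the platform annotation, in which 32093 probes have a single gene. Arrays carry the letters of their titles, and the samples of a group were taken as its replicates. Label numbers were not used to pair the samples. Deviations of same-numbered arrays correlated at -0.07 to 0.14, which cannot show whether such arrays came from the same mouse.

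The members and gene lists were chosen with earlier results of these data known. Besides all Sox probes, the text names other Sox genes that were called, the 2 largest called rises and the 2 largest called falls of each list against both regions, the 3 genes of highest r with each Sox gene, and the tumour suppressors Nf1 and Trp53. Some items are not reported here. The fit was tested on simulated data. Alternatives covered background correction, scaling, the deposited log2 values, filters, chip, replicate block, array weights, variance prior, controls as 1 group and left-out arrays. Leaving out the tumours of chip 1 together and centring tumours on the tumour mean of their chip were added after the data were seen.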

Additional observations from a re-analysis of the deposited data

Results flagged for a closer look

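Of 24 groups of Sox probe values tested by Dixon's ratio, 3 held an array that stood apart, where chance gives about 1 in 20. Sox4 probe 1 was 6.00 in dorsal control E, against 7.10 to 7.49 in the other dorsal controls. Sox4 probe 2 was 4.90 in dorsal control D, against 4.44 to 4.57, and this was the only control array on which that probe was detected. Sox6 probe 1 was 5.50 in dorsal control B, against 4.61 to 4.77, and this was the only dorsal control in which it was detected.

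Among the Sox6 probes that failed the filter, 2 were detected in 1 tumour each and in 0 of 8 controls. Sox6 probe 2 was 5.76 in tumour H, against 4.34 to 4.71 in the controls. Sox6 probe 5 was 4.90 in tumour B, against 4.33 to 4.65 in the controls.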

How the results depend on the processing

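The counts of called Sox probes stayed within 1.5 times their value under every alternative run except 1: with array weights 2 probes passed in ventral minus dorsal control, where 0 passed otherwise. When each array was left out in turn, 9 to 11 probes passed against both regions, 7 to 10 against dorsal control, 6 to 9 against ventral control and 0 to 0 between the control regions, 4 to 4 of the 5 probe pairs differed in their change (Sox2 and Sox4 among them, with a second probe near background in the controls), and 0 correlations passed. No called value changed sign. Without a detection filter, 9, 7 and 6 of the 18 probes passed against both regions, dorsal and ventral control. Without dorsal controls D and E the counts were 9, 8 and 7, and with chip as a block 11, 9 and 6. Calls lost by more than 1 alternative were those of Sox9 probes 1 and 2 and Sox8 probe 2 against dorsal control, and of Sox10, Sox11 probe 2 and Sox4 probe 2 against ventral control. With the replicate block, which rests on shared label numbers (only tumours A, B and C share one with a control), 10, 10, 6 and 0 probes passed, Sox10 against both regions was 1.24 (limma adjusted p = 0.244) and Sox9 probe 1 was 1.66 (adjusted p = 0.00262), while 8539 of all kept probes passed against both regions instead of 11736. The causes of these shifts were not tested. Over the gene lists 53 calls became 51 without background correction and 52 with median scaling. Detection limits Sox2 probe 2, Sox4 probe 2 and Sox6 probe 1, which lay near background in most controls.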
